A study of Mus musculus with 9 samples.

Results

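Double-marked sites are positions in spermatocyte chromatin where a peak of histone H3 trimethylated at lysine 4 (H3K4me3) was also called positive for H3 trimethylated at lysine 36 (H3K36me3). The sites described here are the 348 of 6894 wild-type double-marked sites that were still double-marked in at least 1 of a pair of catalytic mutants of PRDM9. They were chosen by the measured peak calls themselves: a wild-type double-marked interval became a member when a double-marked interval of the mutant EP or of the mutant EK overlapped it by at least 1 bp. Counts of kept sites, and widths of the intervals that define them, are therefore descriptions of the choice, and no test was made on them.

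PRDM9 is the methyltransferase that chooses where meiotic recombination starts in mice. Its zinc fingers bind a DNA motif, and its PR/SET domain trimethylates lysine 4 and lysine 36 of histone H3 on the nucleosomes to either side, which makes a hotspot where SPO11 can cut DNA. The reader protein ZCWPW1 binds nucleosomes that carry both marks, whereas most other H3K4me3 in the genome lies at promoters and most other H3K36me3 lies over the bodies of transcribed genes, where SETD2 places it.

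The series held 9 chromatin immunoprecipitation libraries in 6 groups, from spermatocytes of male mice 14 days after birth. Each of 3 genotypes had 2 H3K4me3 libraries and 1 H3K36me3 library: wild-type C57BL/6J, homozygotes for PRDM9 glutamate 360 changed to proline (EP), and homozygotes for the same residue changed to lysine (EK), both changes being made on C57BL/6J and described in the labels as leaving very little catalytic activity. The deposited data are 6 lists of positions, 1 of H3K4me3 peaks and 1 of double-marked peaks per genotype, restricted by the authors to a known set of PRDM9-dependent sites. The lists carry no height, score or read count, so the depth behind each call is unknown, and with 1 list per genotype there is no error between replicates. The wild-type H3K36me3 library was re-analysed from earlier work, while those of EP and EK were made for this series, so for double-marking batch and genotype cannot be told apart. In H3K4me3, 1 of the 2 EK libraries was new and the other libraries were re-analysed, so EK and EP peaks also differ in batch, and whether the EK list pools both libraries is not given in the sources used here. The lists hold no other readout of cell identity, so the labelled cell type could not be checked against markers. Percentages below are followed by their 95% Wilson interval, which covers the counting of sites alone.

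EP kept 309 of the 6894 sites (4.48%, 4.02 to 5.0%) and EK kept 158 (2.29%, 1.96 to 2.67%). Either mutant kept 348 (5.05%, 4.56 to 5.59%) and both kept 119 (1.73%, 1.44 to 2.06%). That left 190 sites kept in EP only and 39 kept in EK only. Of the other double-marked sites, 1128 retained an H3K4me3 peak in at least 1 mutant without double-marking, and 5418 had no peak in either mutant list. At the edge of the rule, the smallest overlaps between a member and a mutant interval were 40 bp at a site in Bpnt2, 72 bp at a site in Eef2k and 108 bp at a site in Ttyh3, where the whole wild-type interval was 108 bp wide. The nearest sites that were not members missed a mutant interval by 173 bp on chromosome 16, by 245 bp on chromosome 6 and by 312 bp at a site in Cntnap5b on chromosome 1.

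Most members were either narrow or broad in wild type, as set out below. The sequences of 6 RefSeq promoters beside or under members are given first. Each is a window of 300 bases, 250 before to 50 after an annotated start, in assembly GRCm38.p6, whose coordinates are those of mm10. Pcbp1, Abtb1 and Ttyh3 are shown because the narrowest member kept in both mutants, in EP only and in EK only lay just downstream of their starts. Pcbp1 encodes a poly(C)-binding protein of RNA, Abtb1 an ankyrin repeat and BTB domain protein and Ttyh3 a membrane protein of the tweety family. The windows are given 5′ to 3′ on the minus strand, at chr6:86526140-86526439, chr6:88841886-88842185 and chr5:140648982-140649281, with each CpG dinucleotide in capitals.
Pcbp1: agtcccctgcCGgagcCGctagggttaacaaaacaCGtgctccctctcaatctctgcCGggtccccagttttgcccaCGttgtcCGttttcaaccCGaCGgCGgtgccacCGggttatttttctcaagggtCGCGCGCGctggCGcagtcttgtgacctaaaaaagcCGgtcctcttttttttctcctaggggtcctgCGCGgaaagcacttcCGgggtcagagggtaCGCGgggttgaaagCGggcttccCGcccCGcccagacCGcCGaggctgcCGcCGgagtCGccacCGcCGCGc
Abtb1: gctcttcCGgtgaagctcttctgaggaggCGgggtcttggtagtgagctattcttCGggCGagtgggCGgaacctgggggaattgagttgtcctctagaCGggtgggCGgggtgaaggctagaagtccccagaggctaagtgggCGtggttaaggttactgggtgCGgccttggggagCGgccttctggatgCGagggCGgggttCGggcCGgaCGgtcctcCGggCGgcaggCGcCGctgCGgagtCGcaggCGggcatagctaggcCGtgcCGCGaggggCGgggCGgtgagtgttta
Ttyh3: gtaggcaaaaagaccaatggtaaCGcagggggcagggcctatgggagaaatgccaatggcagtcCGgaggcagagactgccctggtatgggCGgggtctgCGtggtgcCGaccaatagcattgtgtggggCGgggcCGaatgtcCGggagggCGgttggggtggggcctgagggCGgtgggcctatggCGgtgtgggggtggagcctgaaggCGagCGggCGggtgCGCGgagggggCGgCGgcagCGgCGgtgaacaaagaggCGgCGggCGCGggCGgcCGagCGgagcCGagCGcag
These windows held 32, 27 and 29 CpG, against a median of 13 over 21263 windows of protein-coding starts. Their GC contents were 63.7%, 66.7% and 70.7%, against a median of 56.3%.

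At 3 protein-coding genes a member lay on a start. Dennd1b, Sumo3 and Trpv3 are shown because a member covered the whole promoter window of each, with a middle, a narrow and a broad width in that order. DENND1B is an exchange factor for Rab GTPases, SUMO3 is a small ubiquitin-like modifier and TRPV3 is a heat-sensitive cation channel. The windows lie on the plus strand at chr1:138967471-138967770, chr10:77613459-77613758 and chr11:73267270-73267569, and capitals mark the bases that were inside a double-marked interval of a mutant.
Dennd1b: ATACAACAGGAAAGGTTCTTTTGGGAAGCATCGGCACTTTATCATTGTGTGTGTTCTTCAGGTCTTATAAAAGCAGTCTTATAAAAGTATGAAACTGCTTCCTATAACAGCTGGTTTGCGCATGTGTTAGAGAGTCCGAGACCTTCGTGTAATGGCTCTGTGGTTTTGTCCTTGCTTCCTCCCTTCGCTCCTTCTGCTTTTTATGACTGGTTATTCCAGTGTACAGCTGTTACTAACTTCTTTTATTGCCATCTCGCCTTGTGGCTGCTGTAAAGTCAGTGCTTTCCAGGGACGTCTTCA
Sumo3: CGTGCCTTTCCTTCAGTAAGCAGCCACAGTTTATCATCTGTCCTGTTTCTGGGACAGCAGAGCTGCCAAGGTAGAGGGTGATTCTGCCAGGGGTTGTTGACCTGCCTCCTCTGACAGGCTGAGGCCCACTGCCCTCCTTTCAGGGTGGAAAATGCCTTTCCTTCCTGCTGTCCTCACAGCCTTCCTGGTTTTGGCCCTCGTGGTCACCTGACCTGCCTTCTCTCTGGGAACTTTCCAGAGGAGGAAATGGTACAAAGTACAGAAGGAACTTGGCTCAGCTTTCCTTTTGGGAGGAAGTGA
Trpv3: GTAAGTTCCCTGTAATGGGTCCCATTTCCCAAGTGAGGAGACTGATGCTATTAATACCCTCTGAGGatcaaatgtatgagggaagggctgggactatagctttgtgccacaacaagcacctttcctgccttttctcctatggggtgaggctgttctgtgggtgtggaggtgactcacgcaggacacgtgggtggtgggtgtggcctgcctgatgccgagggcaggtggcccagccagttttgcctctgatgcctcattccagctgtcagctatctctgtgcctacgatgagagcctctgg
All 300 bases were inside a mutant interval at Dennd1b and at Sumo3, and 66 of 300 at Trpv3. The windows held 7, 2 and 4 CpG, each under the median of 13, with GC contents of 43.3%, 53.7% and 54.7%. The starts of Dennd1b and Sumo3 are each 1 of several annotated for the gene (1 of 2 and 1 of 3), while Trpv3 has 1. Over the whole wild-type list, 42 sites covered a promoter window of a gene of any biotype, and 6 of these were members. The other 3 members covered windows of the long noncoding RNA genes Gm46165, Gm9961 and Gm36841.

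The share of sites that kept both marks did not move in one direction with wild-type width. When the 6894 sites were cut into 10 parts by the width of the wild-type double-marked interval, 64 of the 693 narrowest (108 to 892 bp) were members, 9.24% (7.30 to 11.6%). In each of the next 6 parts, from 893 to 1579 bp, the share was between 0.577% and 1.31%. It was 1.88% (1.10 to 3.20%) from 1580 to 1754 bp and 4.36% (3.07 to 6.16%) from 1755 to 2011 bp. In the widest part, from 2013 to 5015 bp, 204 of 690 sites were members, 29.6% (26.3 to 33.1%). EP and EK each kept 47 of the 693 narrowest sites (6.78%), whereas in the widest part EP kept 190 (27.5%, 24.3 to 31.0%) and EK kept 85 (12.3%, 10.1 to 15.0%). A wide interval has more bases with which to meet another. With midpoints at most 500 bp apart as the condition, the share was 9.24% in the narrowest part, between 0.577% and 1.02% in the next 6, and 28.3% (25 to 31.7%) in the widest.

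**Figure D1:**
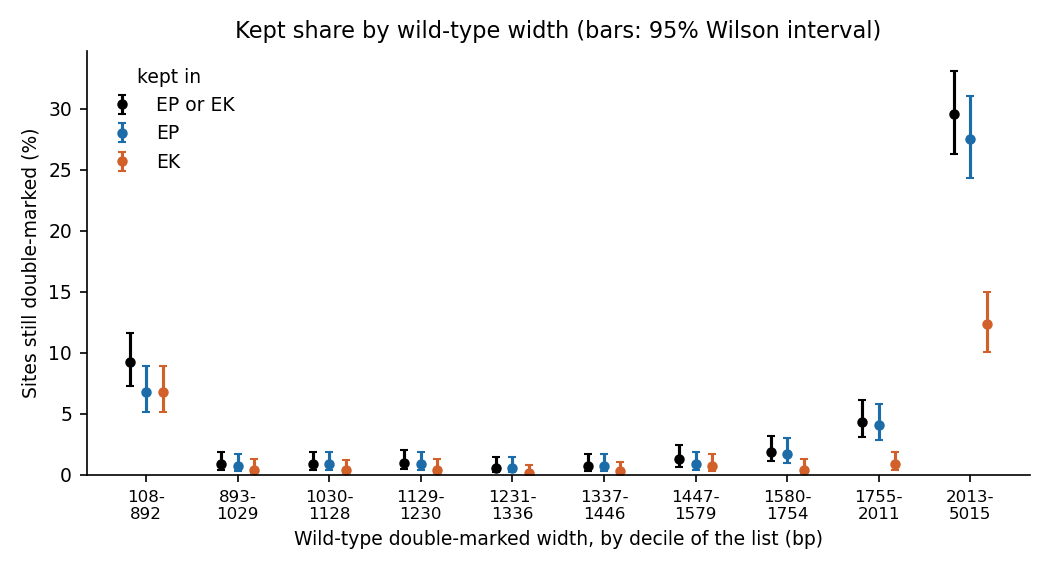
Share of wild-type double-marked sites that were still double-marked in EP or EK (black), in EP (blue) and in EK (orange), as a percentage of the sites in each decile of the wild-type width in bp; bars are 95% Wilson intervals. The share is 9.24% in the narrowest decile, at most 1.31% in the 6 deciles that follow and 29.6% in the widest decile.

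Members in the narrowest decile are called narrow below, those in the widest decile broad and the others middle, a division made after the widths had been seen. There were 64 narrow, 80 middle and 204 broad members. The classes were spread unequally over them. Of the narrow members, 30 were kept in both mutants, 17 in EP only and 17 in EK only. Of the middle members, 18 were kept in both, 54 in EP only and 8 in EK only. Of the broad members, 71 were kept in both, 119 in EP only and 14 in EK only. Narrow sites were thus 17 of the 39 kept in EK only and 17 of the 190 kept in EP only.

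Wild-type H3K4me3 width was not part of the rule, although a double-marked interval always lay inside an H3K4me3 interval. Its median was 2258 bp over the members (quartiles 1389 and 2684 bp) and 1507 bp over the whole list. Sites reduced to H3K4me3 had a median of 1968.5 bp and sites lost in both mutants 1454 bp, so that the members' median was higher by 289.5 bp and by 804 bp. By class the medians were 2378 bp for sites kept in both, 2263.5 bp for EP only and 1466 bp for EK only. The quartiles of the last class were 683 and 2418.5 bp, which spans the gap between the narrow and the broad members. Without the narrowest decile of the list the members' median exceeded those of the reduced and lost sites by 344 bp and 914 bp.

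**Figure D2:**
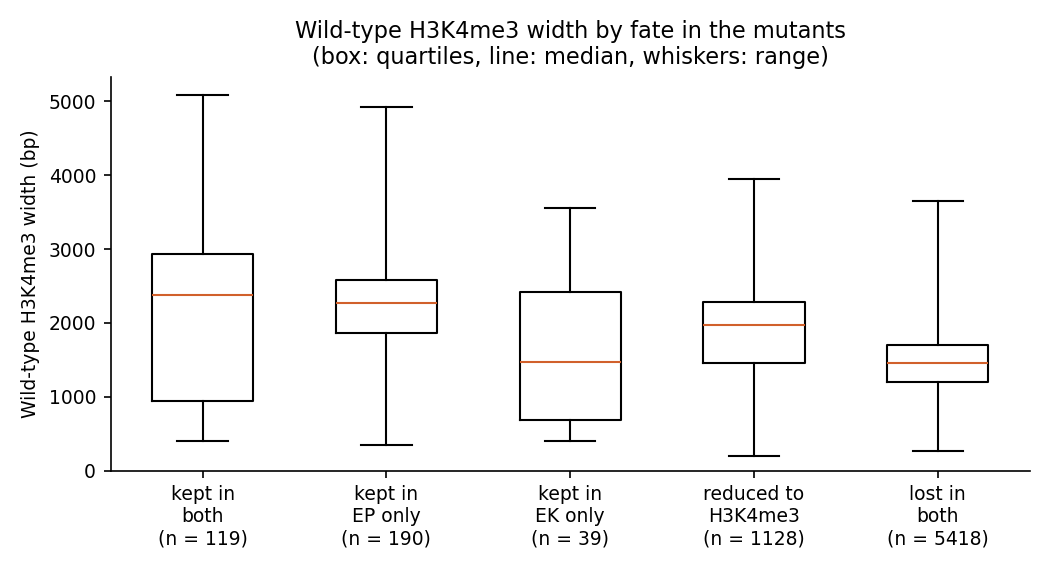
Width in bp of the wild-type H3K4me3 interval at wild-type double-marked sites, by what was called at the site in the mutants; boxes are quartiles, orange lines medians and whiskers the full range. The medians are 2378, 2263.5, 1466, 1968.5 and 1454 bp from left to right, and the ranges of all 5 sets overlap.

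In wild type, the whole H3K4me3 interval was called double-marked more often at members than over the list. The double-marked interval equalled its H3K4me3 interval to the base at 204 of 348 members (58.6%, 53.4 to 63.7%), at 2238 of all 6894 sites (32.5%, 31.4 to 33.6%) and at 287 of the 1128 reduced sites (25.4%, 23.0 to 28.1%). Among members this held for 55 of 64 narrow sites (85.9%), 51 of 80 middle sites (63.8%) and 98 of 204 broad sites (48.0%). The interval for broad members, 41.3 to 54.9%, lay above the share over the whole list, which covers all widths. Shares for non-members of like width were not computed, so whether width has a part in the difference was not tested. The double-marked interval is also what the rule used.

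The mutant interval was shorter than the wild-type interval at broad members. At narrow ones the ratio of the widths was mostly at or below 1, with a median near 1 and a wide range. The groups were cut by wild-type width, which is the denominator of the ratio. That division favours low ratios at broad members and high ones at narrow members. Over all members, the ratio of mutant to wild-type double-marked width had a median of 0.473 in EP (309 sites, quartiles 0.381 and 0.571) and 0.459 in EK (158 sites, quartiles 0.348 and 0.683). At broad members the medians were 0.440 in EP and 0.388 in EK, and no ratio exceeded 0.717. At narrow members they were 0.917 in EP (quartiles 0.572 and 1) and 0.949 in EK (quartiles 0.597 and 1), with ranges of 0.0644 to 2.65 and 0.212 to 4.69. In bp, the median double-marked width at broad members was 2471 in wild type, 1080 in EP and 1031 in EK, and at narrow members it was 595, 503 and 512.

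**Figure D3:**
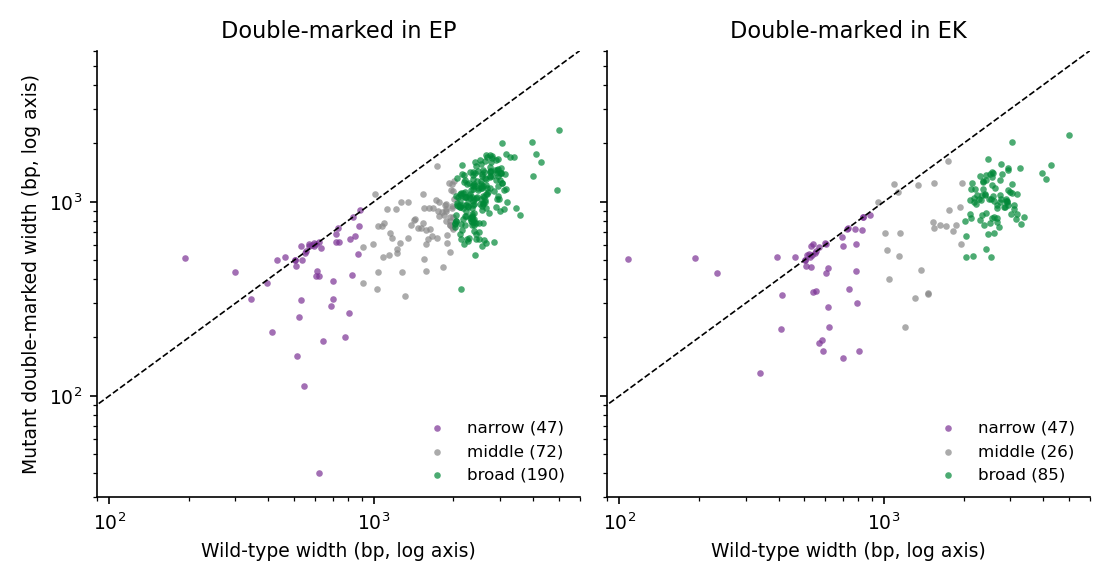
Double-marked width in EP (left) and EK (right) against wild-type double-marked width at each member, both in bp on log axes; colours give the width group with its number of sites, and the dashed line marks equal widths. Broad members lie below the line in both panels (highest ratio 0.717), and narrow members lie on both sides of it, with medians of 0.917 and 0.949 and lower quartiles of 0.572 and 0.597.

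At broad members the mutant interval lay over the middle of the wild-type interval. It lay wholly inside the wild-type interval at 188 of 190 broad members in EP and at 85 of 85 in EK. It covered the wild-type midpoint at 183 of 190 (96.3%) and at 77 of 85 (90.6%). The median loss in EP was 724.5 bp at the lower-coordinate end and 677.5 bp at the other, and in EK 860 bp and 740 bp. A border shared to the base with wild type was seen at 4 of 190 broad members in EP and 3 of 85 in EK. Narrow members differed on that measure: 40 of 47 shared at least 1 border with wild type in EP (85.1%, 72.3 to 92.6%) and 38 of 47 did in EK (80.9%, 67.5 to 89.6%), with both borders the same at 9 and 10 sites. The lists hold no signal, so whether these shared borders are edges of signal was not tested, and widths of narrow members carry that limit.

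The 5 widest of the sites kept in both mutants show the trimming one by one. The widest site of all lay in Capzb, which encodes a subunit of actin capping protein, at chr4:139204946-139209960. It was 5015 bp wide in wild type; EP held 2353 bp of it, EK 2219 bp. A site in Nrg1, the gene of the growth factor neuregulin 1, at chr8:32248169-32252443 went from 4275 bp to 1613 bp (EP) and 1546 bp (EK). The intergenic sites at chr12:26687238-26691328 and chr3:38520351-38524327 went from 4091 bp to 1766 bp and 1310 bp, and from 3977 bp to 2024 bp and 1404 bp. These sites, in EP and in EK alike, held no more than 0.509 of their wild-type width. The fifth, in Hpse2 at chr19:43329293-43332687, measured 3395 bp in wild type but 1694 bp for EP and 835 bp for EK, the largest difference between the mutants among the 5.

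Sites kept in 1 mutant included intervals of similar width. A site in Myt1, which encodes a zinc-finger transcription factor, at chr2:181808678-181813595 was 4918 bp in wild type and 1148 bp in EP. In EK it carried an H3K4me3 peak of 1501 bp and no double-marking. A site in Fto, an RNA demethylase gene, at chr8:91617072-91620233 was 3162 bp in wild type and 1759 bp in EP, with an EK H3K4me3 peak of 1860 bp that was not double-marked. The EK H3K4me3 peak was thus wider than the EP one, which was also 1759 bp. Among sites kept in EK only, the widest was intergenic at chr15:65297924-65301234, with 3311 bp in wild type, 773 bp in EK and an EP H3K4me3 peak of 1755 bp. Sites in St8sia1 at chr6:142860309-142863463 and Ksr2 at chr5:117527003-117529682 had 817 bp and 958 bp in EK, against 3155 bp and 2680 bp in wild type, and EP H3K4me3 peaks of 1911 bp and 1356 bp. All 14 broad members kept in EK only had an H3K4me3 peak in EP.

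A site kept in 1 mutant has, by the rule, no double-marking in the other, and could there carry H3K4me3 alone or no H3K4me3 peak. Of the 190 sites kept in EP only, 106 had an H3K4me3 peak in EK (55.8%, 48.7 to 62.7%). That peak was found at 11.6% of the whole list and at 641 of the 6736 sites not double-marked in EK (9.52%, 8.84 to 10.2%). The latter share the lack of double-marking in EK with the members. Of the 39 kept in EK only, 34 had an H3K4me3 peak in EP (87.2%, 73.3 to 94.4%), against 20.5% of the whole list and 1105 of the 6585 sites not double-marked in EP (16.8%, 15.9 to 17.7%). All 190 sites kept in EP only had an EP H3K4me3 peak, against 20.5% of the whole list. All 39 kept in EK only had an EK one, against 11.6%. The sites compared were not matched on that peak, so how much of the excess comes from the choice was not tested. Among the 1128 sites reduced to H3K4me3, 535 had an EK peak and 1071 an EP peak. Within each width group of the EP-only class the members were above the sites not double-marked in EK, with that limit. EK H3K4me3 was called at 64 of 119 broad members kept in EP only (53.8%, 44.8 to 62.5%), against 37.5% of broad sites not double-marked in EK (33.8 to 41.4%). The shares were 26 of 54 (48.1%, 35.4 to 61.1%) against 4.92% for middle sites and 16 of 17 (94.1%, 73.0 to 99.0%) against 22.3% for narrow sites. Among sites kept in EK only, EP H3K4me3 was called at 14 of 17 narrow (82.4%, 59.0 to 93.8%), 6 of 8 middle (75%, 40.9 to 92.9%) and 14 of 14 broad sites (78.5 to 100%). Sites of those widths not double-marked in EP had shares of 22.8%, 11.2% and 70.2% (66.0 to 74.0% for the broad). Altogether 140 of the 229 members kept in 1 mutant had H3K4me3 without double-marking in the other, and 89 had no H3K4me3 peak there.

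Given an H3K4me3 peak in the mutant, the share with double-marking was lowest at middle widths. In EP, 190 of 541 broad sites with H3K4me3 were double-marked (35.1%, 31.2 to 39.2%), 72 of 679 middle sites (10.6%, 8.51 to 13.1%) and 47 of 194 narrow sites (24.2%, 18.7 to 30.7%). The EK shares were 27.2% (85 of 312), 8.78% (26 of 296) and 24.6% (47 of 191). These shares rest on the same calls as the choice of members and the division by width, and are given as a description. The mutant H3K4me3 peak itself was wider where double-marking was called, with medians of 1147 bp against 875 bp in EP and 1085 bp against 834 bp in EK. Those sets were not matched for wild-type width. At sites kept in EP only, the EK H3K4me3 peak, which carried no double-marking there, had a median of 1061.5 bp. Beside it stand the 1085 bp of the 158 double-marked sites in EK and the 834 bp of the 641 others, which include these 106. Broad sites made up 64 of the 106, 85 of the 158 and 227 of the 641. These medians are therefore not of sites of like width. In the reverse case, 34 sites kept in EK only had an EP H3K4me3 peak. The median width of that peak was 811 bp, below both the 875 bp and the 1147 bp of EP. Its quartiles, 451.25 and 1450.75 bp, were far apart. At the 14 narrow sites among them the EP peak ran from 157 to 834 bp, and at the 14 broad ones from 782 to 1911 bp. Of the 106 EK peaks at sites kept in EP only, 64 were at broad sites. The medians of the 2 cases therefore do not compare sites of like width.

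At the 119 sites kept in both mutants, the EP and EK intervals overlapped each other at 118 sites and were identical to the base at 11. To be in this class both had to meet the same wild-type interval, which favours overlap. The bases common to both made up a median of 81.1% of the joint span of EP and EK (quartiles 62.4 and 94.3%). EP was wider at 70 sites, EK at 37 and the widths were equal at 12. In the broad group EP was wider at 53 of 71 sites, and the median ratio of EK to EP width was 0.891. Among the 30 narrow sites EP was wider at 7, EK at 12 and 11 were equal, all 11 being identical to the base. The site without overlap was in Lzts2 and Pdzd7, at chr19:45026931-45027342. There EP held the lower 213 bp of a wild-type interval of 412 bp, and EK an interval of 332 bp that began beyond the end of the EP one and ran past the wild-type edge.

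**Figure D4:**
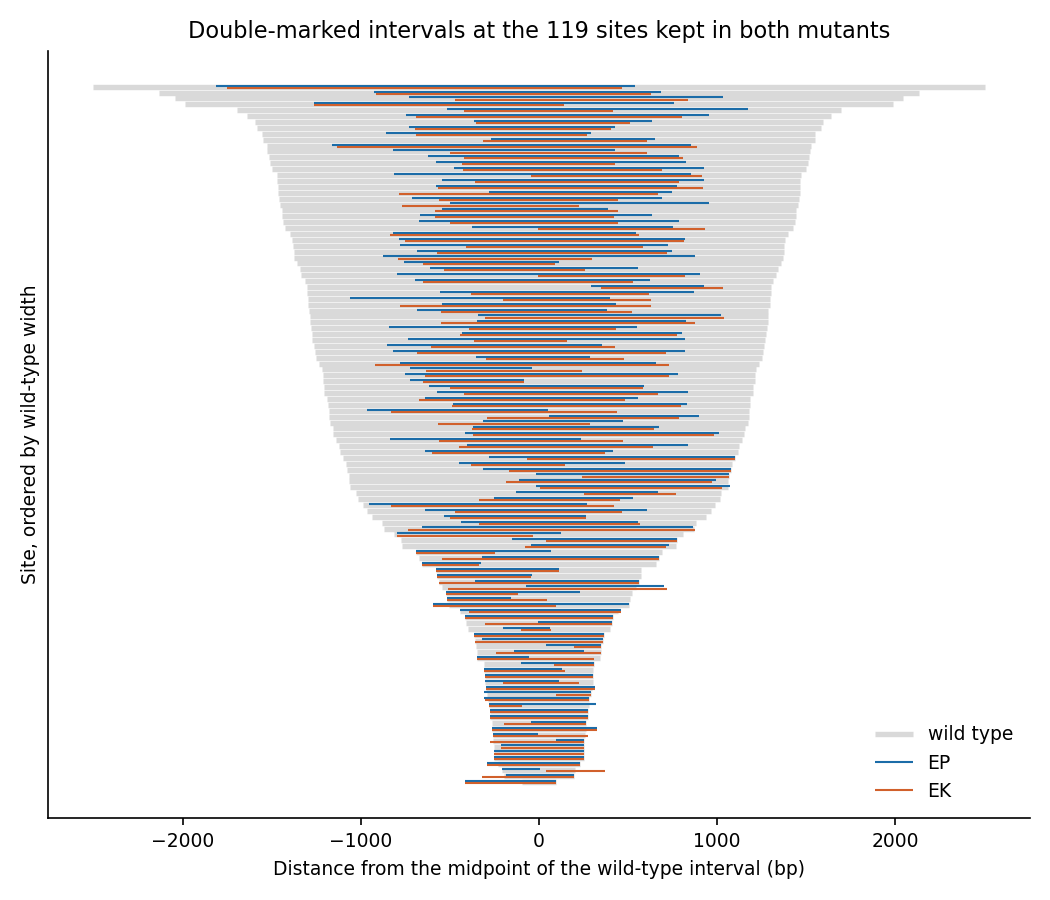
Double-marked intervals of wild type (grey), EP (blue) and EK (orange) at the 119 sites kept in both mutants, one row per site ordered by wild-type width, in bp from the midpoint of the wild-type interval. In the upper rows both mutant intervals sit inside the grey ones and are shorter, and in the lower rows the EP and EK intervals of narrow sites are identical at 11 of 30 sites, 7 of which match wild type too.

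Members lay in genes more often than other double-marked sites. The span of a protein-coding gene overlapped 242 of 348 members (69.5%, 64.5 to 74.1%), compared with 3414 of 6894 sites (49.5%, 48.3 to 50.7%) and 485 of 1128 sites reduced to H3K4me3 (43.0%, 40.1 to 45.9%). Narrow members were in genes at 59 of 64 sites (92.2%, 83.0 to 96.6%), against 364 of 629 narrow non-members (57.9%, 54.0 to 61.7%). Broad members were in genes at 127 of 204 sites (62.3%, 55.4 to 68.6%), against 219 of 486 broad non-members (45.1%, 40.7 to 49.5%). In both width groups the intervals did not overlap. The shares for members kept in both, in EP only and in EK only were 68.1%, 69.5% and 74.4%, within each other's intervals.

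A larger share of members than of all sites lay just downstream of a gene start, most of all among narrow members. Distances were measured from the interval's midpoint to the nearest protein-coding start, for the 339 members and 6662 sites outside chromosome 18, for which no starts were used here. The midpoint lay 1 to 5 kb downstream of a start at 62 of 339 members (18.3%, 14.5 to 22.8%) and at 241 of 6662 sites of the list (3.62%, 3.20 to 4.09%). The same distance upstream held 9 members (2.65%, 1.4 to 4.97%) and 192 sites (2.88%, 2.51 to 3.31%). Read the other way, 25.7% of the 241 sites just downstream kept both marks (20.6 to 31.6%), as did 4.69% of the 192 just upstream (2.49 to 8.67%) and 8.59% of the 524 sites at 5 to 20 kb downstream (6.48 to 11.3%). EP kept 45 and EK 43 of the 241 sites, 18.7% and 17.8%, whereas over the whole list EP kept 4.48% and EK 2.29%.

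Narrow members made up most of that group. A midpoint 1 to 5 kb downstream was found for 39 of 61 narrow members (63.9%, 51.4 to 74.8%), against 44 of 607 narrow non-members (7.25%, 5.44 to 9.59%). It was found for 14 of 79 middle members (17.7%) and 9 of 199 broad members (4.52%, 2.40 to 8.37%), against 1.68% of broad non-members (0.852 to 3.27%). Without the narrowest decile the share over the members was 8.27%. Of the 83 narrow sites in that window, 39 kept both marks (47.0%, 36.6 to 57.6%). At over 20 kb from the nearest available start on either side, 3 of 163 and 5 of 271 narrow sites did (1.84% and 1.85%). Broad sites kept both marks at 25.1% and 30.3% there. Starts were not available for every gene. The narrow members in Pdp1, Bpnt2, Nrbp2 and Kdm6b, counted as over 20 kb away, were measured to the start of another gene, so their distances may be too long. By the available starts, the high share of narrow sites was therefore seen close to a start, and that of broad sites at every distance with more than 10 sites.

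**Figure D5:**
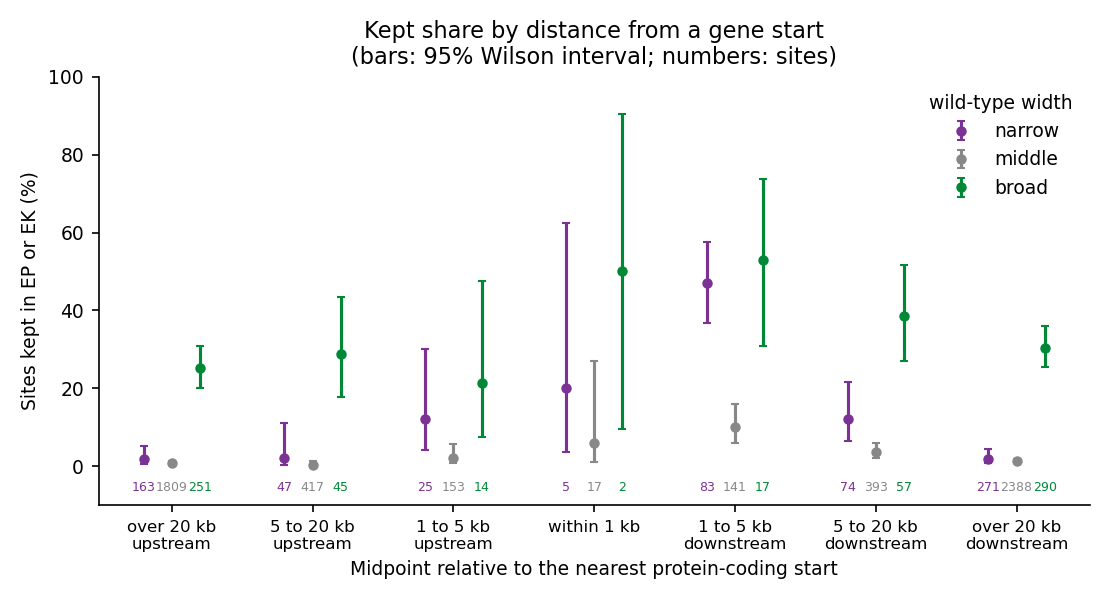
Share of wild-type double-marked sites kept in EP or EK, in percent, by the position of the midpoint relative to the nearest available protein-coding start and by width group. Bars are 95% Wilson intervals and the small numbers are the sites behind each point. Narrow sites reach 47.0% at 1 to 5 kb downstream and are at 1.84% and 1.85% beyond 20 kb, whereas broad sites are at 25.1% and 30.3% there.

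The promoters upstream of these sites were rich in CpG. Over the nearest starts of the 39 narrow members 1 to 5 kb downstream, the 300-base window held a median of 23 CpG (quartiles 16.5 and 30), and 35 of 39 windows held more than 13. The 43 windows of the narrow non-members at the same distance had a median of 20, with 27 above 13. For the 178 windows of all non-members at that distance the median was 12, and for the 21263 protein-coding windows 13. A high count was thus also seen at narrow sites that were not members.

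Of the 39 narrow members in this window, the following were chosen after their values had been seen. Psmb3 encodes a subunit of the proteasome core, and the site 1650 bp downstream of its start was 613 bp in wild type with 439 bp for EP and 456 bp for EK. Hnrnpdl encodes an RNA-binding protein, and its site was 622 bp, 414 bp and 226 bp wide. Txnip encodes a thioredoxin-binding regulator of glucose uptake, and its site, 3657 bp downstream, was 837 bp in all 3 genotypes. Equal widths in all 3 were also seen in Pitrm1 (607 bp), Clic4 (548 bp), Trir (503 bp) and Wnk4 (556 bp). At any distance from a start, 7 of the 30 narrow members kept in both mutants had the same interval in all 3 genotypes. Naa15, a subunit of an N-terminal acetyltransferase, had a site of 825 bp that was 418 bp in EP and 715 bp in EK. Dusp6, a phosphatase of MAP kinases, had a site of 567 bp that was 607 bp in EP and 187 bp in EK. On the X chromosome, a site in Med12, a Mediator subunit gene, was 588 bp in wild type and 171 bp in EK, and one in Las1l, a gene for ribosome maturation, was 531 bp, 312 bp and 460 bp. Widths in EP and EK thus differed from each other at several narrow sites, in either direction.

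The 4 narrowest members, from 108 to 298 bp, had mutant intervals wider than the wild-type one. Choosing them by a small wild-type width favours that outcome. The site beside Pcbp1, at chr6:86522872-86523064 and 3221 bp downstream of its start, was double-marked over 193 bp in wild type within an H3K4me3 interval of 495 bp. Both mutants had the same interval of 512 bp, a ratio of 2.65. The site in Ttyh3, at chr5:140647061-140647168, was double-marked over 108 bp in wild type and over 506 bp in EK, where the EP H3K4me3 peak of 506 bp was not double-marked. In Abtb1 at chr6:88840248-88840545 the wild-type interval was 298 bp and the EP interval 434 bp. In Cbx6, a Polycomb chromobox gene, at chr15:79832016-79832249, the values were 234 bp in wild type and 430 bp in EK. At these 4 sites the wild-type H3K4me3 interval (495, 506, 501 and 626 bp) was at least as wide as the mutant double-marked interval except at Pcbp1, so the small wild-type value was one of double-marking. The next narrowest did not follow a single direction. A site in Eef2k went from 341 bp to 132 bp in EK, one in Sinhcaf from 343 bp to 315 bp in EP, and the site in Lzts2 and Pdzd7 from 412 bp to 213 bp and 332 bp. A site in Ric1 at chr19:29562166-29562561 was 396 bp in wild type with 382 bp for EP and 519 bp for EK.

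At the other end, the members are ranked by the ratio of their wider mutant interval to the wild-type one. The smallest ratio belonged to the site in Bpnt2 at chr4:4790458-4791078, where 621 bp in wild type met 40 bp in EP. A site in Ube3a, an imprinted ubiquitin ligase gene, at chr7:59231575-59232121 fell from 547 bp to 113 bp in EP. A broad site in Zfp438 on chromosome 18 had 2134 bp in wild type and 355 bp in EP, and a site in Fcna at chr2:25630855-25632052 had 1198 bp and 226 bp in EK. The fifth by that ranking, at chr8:128197017-128199854, had 2838 bp and 619 bp in EP. These low ratios came from narrow, middle and broad members.

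Few members lay on or beside a start itself. A start was inside the interval at 3 of 339 members and within 1 kb at 5 (1.47%, 0.632 to 3.41%), against 52 of 6662 sites (0.781%, 0.596 to 1.02%), so the intervals overlapped. The site over the Dennd1b start, at chr1:138966816-138968688 with its midpoint 31 bp downstream, was 1873 bp in wild type with 799 bp for EP and 762 bp for EK. The site over the Sumo3 start, at chr10:77613378-77614260, was 883 bp in wild type and 751 bp in EP, and the EK H3K4me3 peak there was 524 bp. The site over the Trpv3 start, at chr11:73265693-73267813, was 2121 bp in wild type and 938 bp in EP, and EK had no H3K4me3 peak. A site 825 bp from the start of Ecm2, within Cenpp as well, was 620 bp in wild type and in EP. A site 834 bp from the start of Dnaaf2, which is needed to assemble axonemal dynein, was 520 bp in wild type with 256 bp for EP and 538 bp for EK. Dennd1b and Trpv3 thus showed the shortening seen at broad sites, and Ecm2 did not.

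Across chromosomes the kept share ran from 3.10% on chromosome 16 (9 of 290, 1.64 to 5.79%) to 7.21% on chromosome 6 (31 of 430, 5.13 to 10.1%), with overlapping intervals. On the X chromosome 10 of 224 sites were members (4.46%, 2.44 to 8.02%), and neither of the 2 sites on the Y chromosome was. The Y value allows any share up to 65.8%. Members were a median of 85813 bp from the nearest other wild-type double-marked site, against 106628 bp over the list. Another member lay within 100 kb of 25 of the 348 (7.18%, 4.91 to 10.4%), and a member lay that near to 3.86% of all sites.

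The members were spread over 236 protein-coding genes, of which 12 held 2. The 12 were picked for holding 2 members, so those with 2 wild-type double-marked sites had both as members by that choice. How many genes in all hold 2 such sites was not counted. With 2 sites each were Arid1a, which encodes a subunit of the BAF remodelling complex, and Fat4, a protocadherin gene. So were Tex14, which encodes a protein of germ cell bridges, and Ube3a. The other 8 were long genes with 3 to 6 double-marked sites each. They included Bbs9, Fgf14, Grm7, Hdac9, Myo1d, Nrg1 and Zfp385b, and the 8 had spans from 297930 to 1084158 bp. In Ube3a the narrow site and a broad one lay 491 bp apart, at chr7:59231575-59232121 and chr7:59232613-59236183, and both were kept in EP only. The broad one measured 3571 bp in wild type and 859 bp in EP, with no H3K4me3 peak in EK. Of 47 genes of meiotic recombination that were looked up, Tex11 alone held wild-type double-marked sites. Neither of its 2 was a member, where 5.05% of all sites were.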

How the data were processed

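Per the labels' protocols, nuclei were isolated, fixed with formaldehyde and digested with micrococcal nuclease before immunoprecipitation, with standard Illumina libraries. The submitters' processing notes name mm10, Trimmomatic, BWA 0.7.9a and MACS 1.4, without their settings. The deposited values are interval coordinates in bp (0-based, printed here 1-based), in columns without a header and with no score. Per the description deposited with them, the lists hold peaks detected at known PRDM9-dependent sites, and how double-positive peaks were called is not given in the sources used here. A mutant peak elsewhere could not enter a list.

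Overlaps of at least 1 bp were computed with pandas 2.3.3 and NumPy 2.4.6 in Python 3.11.15 and tested on simulated intervals; 95% Wilson intervals came from SciPy 1.17.1. Where several mutant intervals met a site, the widest was used. No comparison has samples to permute, so no p-value is given. Gene spans (21900 protein-coding genes) and promoter windows came from RefSeq GRCm38.p6. Starts were available for 81.8% of protein-coding genes outside chromosome 18, so some distances are too long. Exons and introns were not analysed here, and no genome sequence of the intervals was used.

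The sites, the gene list and the comparisons were chosen with earlier results of these data known. Named sites were the 5 widest and 3 narrowest per class, the 5 largest and 5 smallest width ratios, sites within 1 kb of a start, genes holding 2 members or more, and the sites at the edge of the rule; those for which no values are given are in the counts, and 1 gene is not reported here by name. Alternatives were other overlap rules, merging within 500 bp, autosomes alone, other gene classes and distances, and removal of sites near gene boundaries; those that remove the narrowest decile, use either boundary of a gene, concern the window 1 to 5 kb downstream, count width parts by midpoints or compare with sites not double-marked in the other mutant were added after the data had been seen.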

Additional observations from a re-analysis of the deposited data

How the results depend on the processing

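Of 51 alternatives to the values in the report, 44 left the value within 1.5 times (counts and differences) or within the reported interval (shares), and none reversed a direction. In mean log2 width, a scale not comparable in size with the medians, members exceeded reduced sites by 0.07 and lost sites by 0.36. The number of sites kept in EP or EK ranged from 322 to 348. The values 322 and 338 came from removing sites near gene boundaries and on the sex chromosomes, which can only lower a count. Shares of the sites left were not computed, so these 2 alternatives say little about the kept share. The share of members in a gene span was 75% with genes of any biotype and 64.4% without the narrowest decile, against 69.5%. The share of members near a start was 23.9% within 5 kb, against 1.47% within 1 kb, and 7.47% lay within 1 kb of either boundary of a gene span. The share 1 to 5 kb downstream of a start was 8.27% without the narrowest decile, against 18.3%. The removal of the narrowest decile and the use of either boundary were chosen after seeing the data. No paired analysis was possible because each genotype has 1 list of each kind.

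The lists do not give the authors' detection limit, so absence from a mutant list is absence of a call. The wild-type H3K36me3 library is from another experiment than both mutant ones. Some widths depend on borders that are shared to the base between lists. At least 1 border was shared with wild type at 69 of 309 members in EP and 53 of 158 in EK, most often at narrow members. The 339 members with a start distance share incomplete annotation with all other sites. Whether read depth, batch or the peak caller has a part in the difference between EP and EK was not tested.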
